A study of Mus musculus with 20 samples.

Results

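The RNA of 8 genes for gluconeogenesis, glycolysis, glucose transport and amino acid use in the hepatocyte was followed in wild-type mice and mice lacking functional RORα. Glucose flux was not measured. Both liver and white adipose tissue, abbreviated WAT, were measured. These 8 genes were Pck1, G6pc, Fbp1, Pcx, Pklr, Slc2a2, Tat and Sds. A probe belonged to the set when the gene name in the scanner files was one of these 8 names. This gave 9 probes, 2 of them for Slc2a2, of 41174 probes with 27962 different gene names on the array.

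All mice were male C57BL/6 of 5 months that had received a diet with 35% fat for 6 weeks. The 4 groups were liver and WAT of wild-type (WT) mice and liver and WAT of RORasg/sg mice, with 5 arrays in each. RORasg/sg mice, called staggerer or sg/sg, carry on both chromosomes a naturally arisen deletion in Rora, present in every tissue and so not restricted to liver or fat. Total RNA was labelled with Cy3 and hybridised to Agilent whole-genome mouse arrays, 1 sample per array. The labels give neither the fat depot, the feeding state nor the time of day at collection, nor whether equal replicate numbers in liver and WAT stand for 1 animal.

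Gluconeogenesis makes glucose from lactate, glycerol and amino acids, mainly in liver during fasting. Pyruvate carboxylase (Pcx) and phosphoenolpyruvate carboxykinase (Pck1) together bypass the last irreversible step of glycolysis, fructose-1,6-bisphosphatase (Fbp1) bypasses the phosphofructokinase step, and glucose-6-phosphatase (G6pc) releases free glucose. Liver pyruvate kinase (Pklr) runs in the glycolytic direction and its transcription rises with carbohydrate feeding. Slc2a2 encodes GLUT2, the glucose carrier of the hepatocyte membrane, and tyrosine aminotransferase (Tat) and serine dehydratase (Sds) feed amino acid carbon into the pathway. RORα is a nuclear receptor that binds DNA as a monomer at an A/T-rich stretch followed by the hexamer AGGTCA or a close variant. In adipocytes Pck1 and Pcx also serve glyceroneogenesis and fatty acid synthesis, whereas G6pc, Pklr, Slc2a2, Tat and Sds are known mainly from liver and a few other organs.

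Levels are given as log2 of the processed intensity minus the 75th percentile of that array on the same scale, so a level of 0 lies at that percentile. Levels of different probes are not comparable with one another, since probes differ in brightness per molecule. The 75th percentile was 648 to 1090 intensity units on the liver arrays and 1352 to 2598 on the WAT arrays. The share of spots well above background was 57.1% to 63.0% in liver and 72.5% to 81.5% in WAT. The lowest values in WAT were those of sg/sg replicate 4. The 3 probes for Rora were lower on every sg/sg array than on every WT array of the same tissue. Probe 1 went from a mean of 2.05 to -0.83 in liver and fell by 2.72 in WAT (adjusted p = 5.5244e-05, limma). Probe 3 was not well above background on any sg/sg liver array, where the difference was at least 2.10-fold (the sg/sg level set to the higher of its own signal and the dimmest signal well above background on each array). Among hepatocyte markers, the summed linear level was 2736 to 3640 in WT liver and 40.0 to 64.0 in WT WAT, and all 8 markers were measured above background in liver. Adipocyte markers summed to 573 to 902 in WT WAT and 7.83 to 23.1 in WT liver. The labelled tissues thus carried their own defining markers.

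In liver, Tat was the only one of the 9 probes to pass the test for genotype, and it was higher in sg/sg mice. Pklr, Pcx and both Slc2a2 probes had lower means in sg/sg liver with adjusted p-values just above the threshold of 0.05, and Pck1, G6pc, Fbp1 and Sds overlapped widely between genotypes. Over all 24697 probes tested in liver, 14.6% passed, 8.09% higher and 6.48% lower. The 1 call among 9 probes is thus close to the background share. Genotype and slide largely coincided in liver. WT replicates 1 to 4 lay on slide 1 and sg/sg replicates 4 and 5 on slide 3, each without the other genotype. Only slide 2 held both, with WT replicate 5 and sg/sg replicates 1 to 3. Outside slide 2, a difference of genotype and a difference of slide cannot be told apart. The median change of the 9 probes was 0.06 against 0.04 over all probes. The number of higher and lower calls among all probes depended on the scaling. It was 1999 and 1601 with the 75th percentile, and 866 and 2290 with the median, which moved the median change of all probes from 0.04 to -0.07.

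The first gluconeogenic bypass enzyme, Pcx, carboxylates pyruvate to oxaloacetate in mitochondria. In WT liver its levels on replicates 1 to 5 were 6.02, 6.53, 6.34, 6.31 and 6.21, and in sg/sg liver they were 5.97, 5.97, 5.97, 5.90 and 6.09. Of the 5 sg/sg arrays, 4 lay below the lowest WT array, and replicate 5 lay above it. The sg/sg arrays were tightly grouped, at 5.98 ± 0.07 (SD, n = 5), against 6.28 ± 0.19 in WT (SD, n = 5). The difference of -0.30 ± 0.10 (SE) did not pass the test (adjusted p = 0.0620, limma with Benjamini-Hochberg adjustment over all probes). It passed in 2 of 23 alternative settings, with normexp background correction and without WT replicate 1 (adjusted p = 0.0330, limma). That replicate was the only WT array within the range of the sg/sg arrays.

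Pck1 converts oxaloacetate to phosphoenolpyruvate in the cytosol and is a classic target of glucagon and glucocorticoid. Its levels in WT liver were 7.62, 6.98, 7.67, 6.93 and 7.55, and in sg/sg liver 7.57, 8.08, 7.90, 7.23 and 7.06. The ranges overlapped, with 2 sg/sg arrays above the highest WT array. The difference was 0.22 ± 0.23 (SE), with a 95% interval of -0.28 to 0.72 (adjusted p = 0.537, limma). Without the arrays numbered 2 in both genotypes it was -0.0013, a comparison added after the values had been seen.

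Fbp1 removes a phosphate from fructose-1,6-bisphosphate and was the least variable of the 9 probes in WT liver. Its levels were 8.57, 8.66, 8.70, 8.56 and 8.76 in WT liver and 8.63, 8.87, 8.58, 8.74 and 8.72 in sg/sg liver. The genotypes overlapped almost fully. The difference of 0.06 ± 0.08 (SE) had a 95% interval of -0.12 to 0.24 (adjusted p = 0.652, limma), and its sign turned with quantile normalization (-0.21) and with median scaling (-0.046).

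G6pc, the catalytic subunit that releases free glucose, varied widely between mice of 1 genotype. Its levels were 4.35, 6.11, 5.31, 4.33 and 4.59 in WT liver and 5.54, 4.36, 6.01, 5.21 and 4.95 in sg/sg liver. The highest array of all 10 was a WT array, and the sg/sg arrays all lay within the WT range. The difference was 0.28 ± 0.39 (SE), and its 95% interval of -0.58 to 1.13 holds both a decrease and a doubling (adjusted p = 0.657, limma).

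Pklr catalyses the last step of glycolysis in hepatocytes and showed the largest fitted difference among the 9 probes in liver. Its probe is shown because it lies on mm7 chr3:89271395-89271913, a span of 519 bases for 60 bases of probe, so that its match is split over that interval. The probe is printed without capitals because no motif is marked in it.
Pklr probe: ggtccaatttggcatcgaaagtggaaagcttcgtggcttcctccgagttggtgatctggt
Pklr levels were 1.16, 2.91, 2.54, 1.38 and 1.31 in WT liver and 0.76, -0.37, 0.69, 1.28 and 0.81 in sg/sg liver. WT replicates 2 and 3 stood above the other WT arrays, sg/sg replicate 2 was the lowest of all 10, and 4 sg/sg arrays lay below every WT array. The mean was 1.86 ± 0.81 in WT and 0.63 ± 0.61 in sg/sg liver (SD, n = 5 each). The 2.34-fold lower mean, a difference of -1.23 ± 0.40 (SE), missed the threshold (adjusted p = 0.0609, limma). It was -0.95 within the slide that held WT replicate 5 and sg/sg replicates 1 to 3.

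Slc2a2 was measured by 2 probes, both of which pointed the same way in liver. Probe 2 is printed because its groups did not overlap; it lies on mm7 chr3:28542040-28542748, again a span longer than the probe, and probe 1 on chr3:28543803-28543862. No motif is marked in the probe.
Slc2a2 probe 2: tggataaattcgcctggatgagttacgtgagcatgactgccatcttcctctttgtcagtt
Probe 2 gave levels of 3.18, 3.64, 3.57, 3.21 and 3.29 in WT liver and 3.11, 1.60, 2.62, 3.05 and 2.61 in sg/sg liver. Every sg/sg array lay below every WT array, though the gap between the closest arrays was small. Among all liver probes, 12.2% had groups that did not overlap, 5.56% with sg/sg lower. The difference was -0.78 ± 0.26 (SE, adjusted p = 0.0643, limma). It passed in 2 of 22 alternative settings, with normexp background correction and without sg/sg replicate 1 (-0.91, adjusted p = 0.0498, limma). That replicate was the sg/sg array nearest to the WT arrays.

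Probe 1 of Slc2a2 gave 4.26, 4.84, 4.70, 4.46 and 4.65 in WT liver and 4.33, 3.08, 4.13, 4.01 and 4.11 in sg/sg liver. Here sg/sg replicate 1 overlapped the WT range and sg/sg replicate 2 stood apart at the low end, as it did with probe 2. The difference was -0.65 ± 0.22 (SE, adjusted p = 0.0678, limma). Without the arrays numbered 2 in both genotypes the differences shrank to -0.37 for probe 1, -0.46 for probe 2 and -0.71 for Pklr, with adjusted p-values of 0.0906, 0.0923 and 0.157 (limma).

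Tat, which transfers the amino group of tyrosine and is induced by glucocorticoid and glucagon, rose in sg/sg liver. Its levels were 6.80, 6.37, 6.81, 6.53 and 6.96 in WT liver and 7.45, 7.82, 7.72, 7.77 and 7.09 in sg/sg liver. The groups did not overlap; among all liver probes, 6.62% had groups apart with sg/sg higher. The mean went from 6.69 ± 0.24 to 7.57 ± 0.30 (SD, n = 5 each), an increase of 0.88 ± 0.16 (SE) or 1.84-fold (adjusted p = 0.0119, limma). With any 1 of the 10 arrays left out the increase stayed between 0.80 and 1.0 and passed. Within the slide shared by both genotypes, which held 1 WT array, it was 0.70. With slide as a fixed block, only that slide compares the genotypes, so the fit rests on its 1 WT array. Tat did not pass there (adjusted p = 0.589, limma), in a setting where 3 of all liver probes did. By the layout of the slides, genotype and slide cannot be told apart for most of these arrays.

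Summed hepatocyte markers, too, were higher in sg/sg liver: they ranged from 2736 to 3640 in WT liver, against 3682 to 4366 in sg/sg liver, so that the ranges did not overlap. In all 2 of 8 such markers passed, Trf (0.38 ± 0.10) and Fgb (0.38 ± 0.09), and none fell (differences ± SE). Within the slide that held both genotypes, with 1 WT array, the 8 markers differed by -0.044 to 0.31. Macrophage markers rose in 4 of 8 cases, with overlapping sums of 35.2 to 67.8 in WT and 56.3 to 91.4 in sg/sg liver. Over all probes tested in liver, 8.09% passed higher. The part of the hepatocyte share and of macrophage RNA in the Tat result was not tested. In bulk tissue, a change in the share of a cell type and a change in RNA per cell cannot be told apart.

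Sds, which deaminates serine to pyruvate, did not pass. Its levels were 5.24, 5.36, 4.56, 4.71 and 5.17 in WT liver and 5.08, 6.07, 5.08, 5.16 and 5.22 in sg/sg liver. All sg/sg arrays but replicate 2 lay within the WT range. The difference was 0.31 ± 0.22 (SE, adjusted p = 0.350, limma), with a 95% interval of -0.17 to 0.80.

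**Figure D1:**
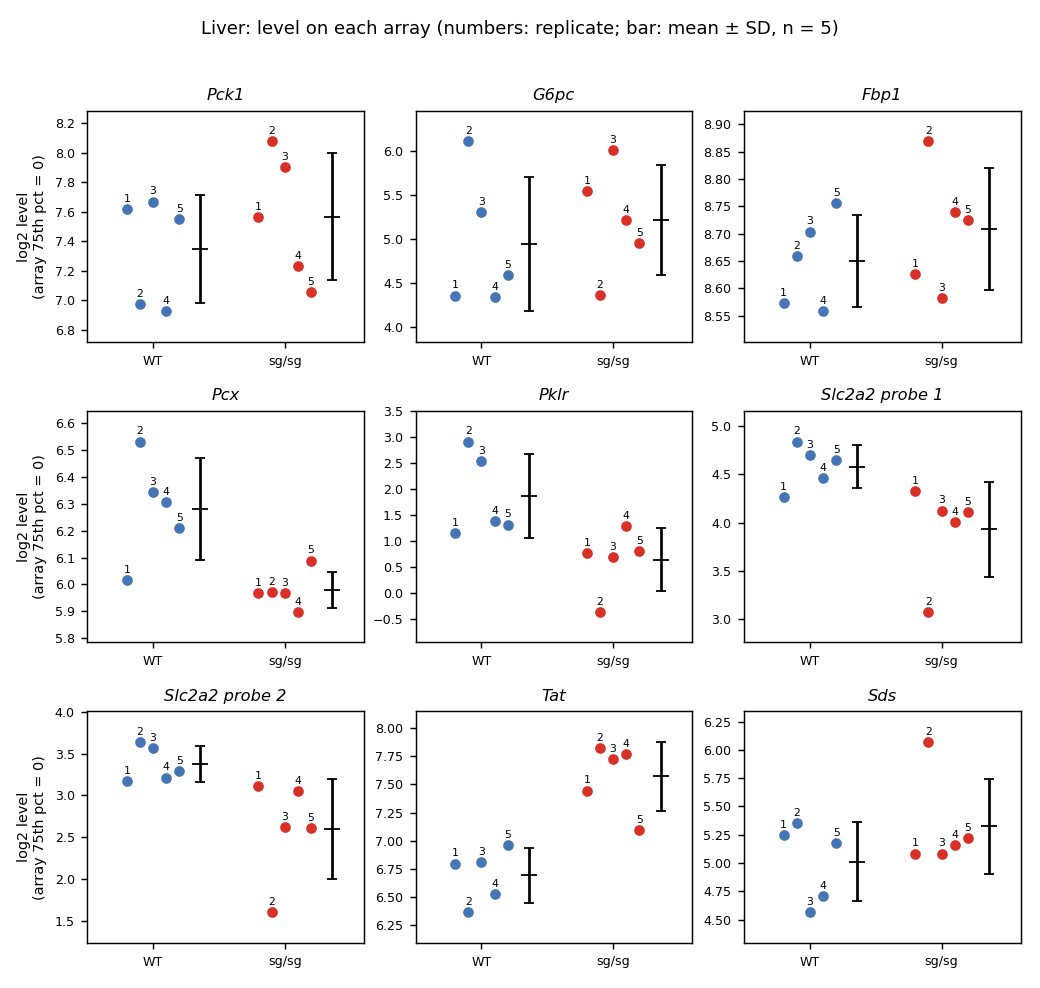
Level of each of the 9 probes on the 10 liver arrays, as log2 intensity minus the array's 75th percentile; points are arrays labelled with their replicate number, and the bar is the mean ± SD of 5 arrays. The groups are apart for Tat (sg/sg higher) and Slc2a2 probe 2 (sg/sg lower), and sg/sg replicate 2 is the lowest of its group for G6pc, Pklr and both Slc2a2 probes.

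Mice of 1 genotype differed from each other in a way that the 9 probes shared in part. WT replicate 2 lay above its group mean by 1.17 for G6pc, 1.05 for Pklr, 0.26 for each Slc2a2 probe and 0.25 for Pcx, and below it for Tat (-0.33) and Pck1 (-0.37). Replicate 2 of sg/sg liver had the opposite sign for G6pc (-0.86), Pklr (-1.0), Slc2a2 (-0.85 and -1.0), Tat (0.25) and Pck1 (0.51). Pcx lay near the group mean there (-0.0070). Sds and Fbp1 did not show this contrast, since they lay above the group mean on both arrays. Sds deviated by 0.35 on the WT and 0.75 on the sg/sg array, and Fbp1 by 0.0092 and 0.16. G6pc and Pklr, which act in opposite metabolic directions, had the same sign of deviation on these 2 arrays and on 8 of the 10 liver arrays in all. Pck1 and G6pc had opposite signs on these 2 arrays, but the same sign on 5 of the 10.

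**Figure D2:**
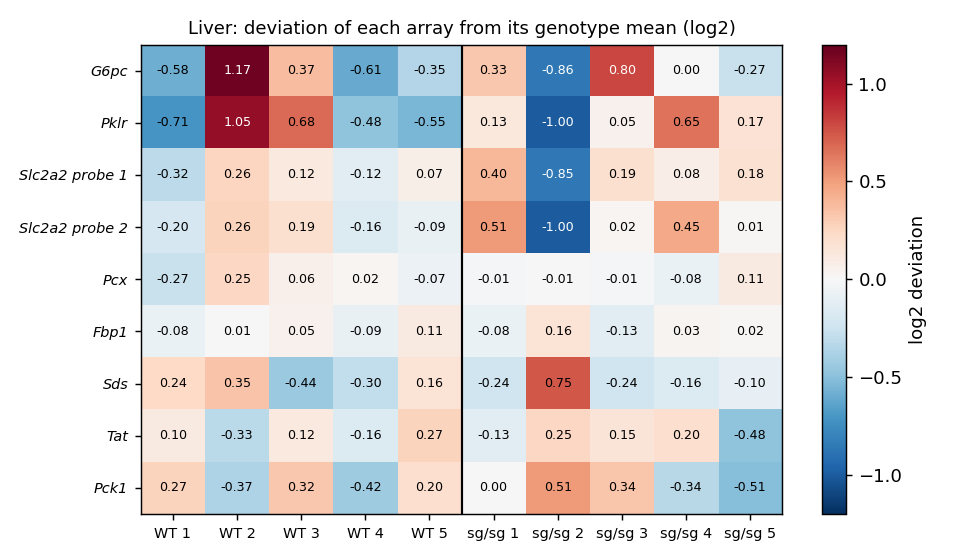
Deviation of each liver array from the mean of its own genotype (log2) for the 9 probes; columns are arrays, red is above and blue below the group mean. The arrays numbered 2 hold the highest and the lowest deviations of G6pc (1.17 and -0.86) and of Pklr (1.05 and -1.0).

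For each gene, the genes with the most similar deviations over the 10 liver arrays were found by Pearson's r among 15241 genes, each by its brightest probe. The arrays shared by these values are few, and the highest of so many r values is high by selection, so they are given as a description. For Pklr they were Pdhb (r = 0.98), a subunit of pyruvate dehydrogenase, and Tkfc (r = 0.96), the kinase that phosphorylates glyceraldehyde from fructose. For Tat they were Dpysl2 (r = 0.97) and Pemt (r = 0.93), which methylates phosphatidylethanolamine. For Pck1 they were A230083H22Rik and B230208H17Rik (r = 0.98 and 0.96), and for G6pc Fbxw9 and M77003 (r = 0.94 each). For Slc2a2 they were Gask1a and Cox18 (r = 0.95 each), for Pcx Rab34 and 5830411E10Rik (r = 0.95 and 0.93), for Fbp1 Syne4 and Romo1 (r = 0.97 each), and for Sds Ift57 and Cd34 (r = 0.95 and 0.94).

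Other genes of the pathway in liver were read from lists, each gene by its brightest probe. The counts stand beside the 14.6% of all probes that passed in liver, 8.09% higher and 6.48% lower, a share taken over every probe and not over the brightest of each gene. Of 15 tested genes of the reversible and shared gluconeogenic steps, 4 fell and none rose. These were G6pc3, the widely expressed glucose-6-phosphatase (-0.33 ± 0.08), Got2, the mitochondrial aspartate aminotransferase (-0.33 ± 0.08), Eno1 (-0.66 ± 0.17) and Pgk1 (-0.26 ± 0.08), both glycolytic enzymes that also run in reverse (differences ± SE; adjusted p from 0.0224 to 0.0483, limma). The median of the 15 was -0.16.

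Among 22 genes of glycolysis and pyruvate control in liver, 1 rose and 1 fell. Pfkl, the liver phosphofructokinase, rose by 0.36 ± 0.09 (SE), and by 0.21 within the slide that held both genotypes. Pfkfb1, the bifunctional enzyme that sets fructose-2,6-bisphosphate, fell (-0.62 ± 0.17; -0.94 within that slide).

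Hormonal and transcriptional regulators gave 1 rise and 2 falls among 25 genes in liver. Irs1, an insulin receptor substrate, rose by 0.79 ± 0.15 (SE). Trib3, a pseudokinase that restrains Akt, fell (-1.83 ± 0.33; -1.14 within the slide that held both genotypes), as did the coactivator Ppargc1b (-0.49 ± 0.14). Foxo1, which activates gluconeogenic promoters when insulin is low, had a difference of -0.32 ± 0.11 (SE) that did not pass (adjusted p = 0.0667, limma).

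Of 19 genes of amino acid metabolism in liver, most of them for breakdown, 2 rose and 1 fell. Hpd, the enzyme that follows Tat in tyrosine breakdown, rose by 0.50 ± 0.14 (SE), but the difference was 0.051 within the slide that held both genotypes. Asns, which makes asparagine, rose by 1.89 ± 0.54, and the alanine aminotransferase Gpt2 fell (-0.53 ± 0.13; -0.81 within that slide). Among 9 sugar carriers and fructose enzymes only the fructose carrier Slc2a5 passed, and it fell (-0.58 ± 0.16).

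Gluconeogenesis is strongest in periportal hepatocytes, and markers of both zones were therefore counted. Of 7 periportal markers, Hsd17b13 fell (-0.68 ± 0.14, SE) and 6 did not pass. Of 9 pericentral markers, the glutamate carrier Slc1a2 rose by 0.53 ± 0.13 and 8 did not pass.

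In WAT, Pck1 and G6pc rose in sg/sg mice and 1 of the 2 Slc2a2 probes fell. Pcx had groups that did not overlap, with sg/sg higher, but missed the threshold. Of the 9 probes, 8 passed the filter on dim signal in WAT and were tested, so that 3 of 8 passed the test; over all 32319 probes tested in WAT 21.9% passed, 12.8% higher and 9.14% lower. The median change of the 8 probes was -0.11 against 0.08 over all probes. Sds was well above background on 1 of 5 arrays in each genotype and was not tested.

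Pck1 levels in WAT were 5.68, 4.50, 5.61, 5.87 and 5.70 in the WT group, against 6.56, 6.51, 6.28, 6.00 and 6.54 in the sg/sg group. All sg/sg arrays lay above all WT arrays, and WT replicate 2 stood apart at the low end. Groups that did not overlap occurred in 20.8% of all WAT probes, with sg/sg higher in 12.1% and lower in 8.71%. The increase was 0.90 ± 0.25 (SE) or 1.87-fold (adjusted p = 0.0274, limma). It was 0.66 without WT replicate 2 and still passed. Without sg/sg replicate 1, 2, 3 or 5 it did not pass (adjusted p from 0.0506 to 0.0605), nor with quantile normalization (0.79, adjusted p = 0.0580), slide as a fixed block (0.85, adjusted p = 0.0647) or normexp background correction (0.67, adjusted p = 0.227). Within the 3 slides that each held both genotypes it was 0.61, 0.71 and 1.37.

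Pcx levels in WAT were 5.56, 5.00, 5.54, 5.38 and 5.23 in the WT group, against 5.74, 5.97, 5.81, 6.84 and 5.64 in the sg/sg group. The groups did not overlap, and sg/sg replicate 4 stood above all others. The difference was 0.66 ± 0.22 (SE) or 1.58-fold (adjusted p = 0.0610, limma). Without sg/sg replicate 4 it was smaller but passed (0.45 ± 0.13, adjusted p = 0.0298).

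Summed adipocyte markers were 573 to 902 in WT WAT, against 962 to 1311 in sg/sg WAT. Of 8 markers, Adipoq (0.43 ± 0.13), Plin1 (0.66 ± 0.14) and Cfd (0.85 ± 0.25) rose, Lep fell (-0.84 ± 0.19) and 4 did not pass (differences ± SE). The marker counts stand beside the 12.8% of all WAT probes that passed higher and the 9.14% that passed lower. Macrophage markers fell in 5 of 8 cases, with sums of 59.8 to 126 in WT and 33.6 to 53.6 in sg/sg WAT. Of 6 fibroblast markers 3 fell, the collagen genes Col1a1 (-0.84 ± 0.16), Col1a2 (-0.54 ± 0.14) and Col3a1 (-0.45 ± 0.13), with sums of 264 to 327 in WT against 230.1 to 291 in sg/sg WAT. Of 4 epithelial genes listed as cholangiocyte markers 3 rose, Krt7 (1.28 ± 0.36), Krt19 (1.22 ± 0.32) and Sox9 (2.16 ± 0.27), with sums of 2.53 to 6.88 against 6.94 to 11.4. Of 3 mesothelial markers Upk3b rose by 1.23 ± 0.37, with sums of 4.31 to 23.4 against 17.8 to 27.7. The part of these cell types in the differences of Pck1, Pcx and the other probes was not tested.

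G6pc was well above background on all 10 WAT arrays, with a mean processed intensity of 152 in the WT and 243 in the sg/sg group. Its levels were -3.74, -4.42, -4.15, -3.72 and -3.61 in the WT group, against -2.75, -2.22, -3.58, -3.25 and -3.07 in the sg/sg group. The groups were apart by a narrow margin between WT replicate 5 and sg/sg replicate 3. The increase was 0.96 ± 0.26 (SE) or 1.94-fold (adjusted p = 0.0245, limma). It did not pass without WT replicate 3 or without sg/sg replicate 1 (adjusted p = 0.0571 and 0.0559), nor with normexp (1.29, adjusted p = 0.117). Within the 3 slides it was 1.21, 0.29 and 1.32.

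Slc2a2 probe 1 levels in WAT were -3.44, -4.39, -3.39, -3.55 and -3.34 in the WT group, against -4.90, -4.18, -5.02, -4.59 and -3.83 in the sg/sg group. On this probe 3 sg/sg arrays lay below every WT array, and WT replicate 2 lay among the sg/sg arrays. The fall of 0.88 was 1.84-fold (-0.88 ± 0.27, SE; adjusted p = 0.0416, limma). It did not pass when any of WT replicates 1, 3, 4 and 5 or sg/sg replicates 1, 2, 3 and 4 was left out (adjusted p from 0.0513 to 0.0938). Nor did it pass with quantile normalization (adjusted p = 0.0797), median scaling (0.0736) or no filter on dim probes (0.0589). With normexp background correction its sign turned (0.33), but not when sg/sg replicate 4 was left out as well. The normexp level of that array was -0.70, against -4.12 to -2.51 on the other sg/sg arrays.

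Slc2a2 probe 2 gave -4.99, -5.25, -4.88, -4.90 and -4.81 in the WT group, against -5.48, -5.06, -6.06, -6.26 and -4.98 in the sg/sg group of WAT. It had overlapping groups and a difference of -0.60 ± 0.25 (SE, adjusted p = 0.113, limma). Mean intensities of Slc2a2 in WAT were 190 and 84.5 with probe 1 and 73.6 and 41.8 with probe 2, for WT and sg/sg in that order. None of the 7 hepatocyte markers tested in WAT passed. Their sum there was 40.0 to 64.0 in WT and 40.7 to 67.6 in sg/sg mice and consisted mostly of Trf (mean level 5.48 in WT). Liver-restricted markers varied between mice, with Alb at -1.13 ± 2.11 in WT and 0.25 ± 0.83 in sg/sg WAT (SD, n = 5 each) and a difference for Hpx of -2.07 ± 0.83 (SE, adjusted p = 0.102, limma). The part of liver RNA in the WAT values of G6pc and Slc2a2 was not tested.

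Fbp1 differed widely between mice in WAT. Its levels were -1.21, 1.29, -1.06, -1.79 and -1.97 in the WT group, against -4.90, 0.69, -1.78, -0.78 and -0.14 in the sg/sg group. The arrays numbered 2 were the highest of both genotypes, and sg/sg replicate 1 was far below all others. The difference of -0.43 ± 1.0 (SE, adjusted p = 0.801, limma) changed sign without WT replicate 2 (0.13) or without sg/sg replicate 1 (0.45).

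Pklr and Tat did not pass in WAT. Pklr levels were -6.11, -4.41, -6.14, -5.56 and -6.74 in the WT group, against -5.32, -6.06, -6.89, -6.29 and -6.38 in the sg/sg group. The groups overlapped, at mean intensities of 51.2 and 27.0, with a difference of -0.40 ± 0.42 (SE, adjusted p = 0.548, limma). Tat levels were -3.53, -2.74, -2.94, -3.27 and -3.35 in the WT group, against -2.70, -3.62, -2.92, -3.22 and -2.54 in the sg/sg group. Their difference was 0.17 ± 0.22 (SE, adjusted p = 0.639, limma), with overlapping groups.

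**Figure D3:**
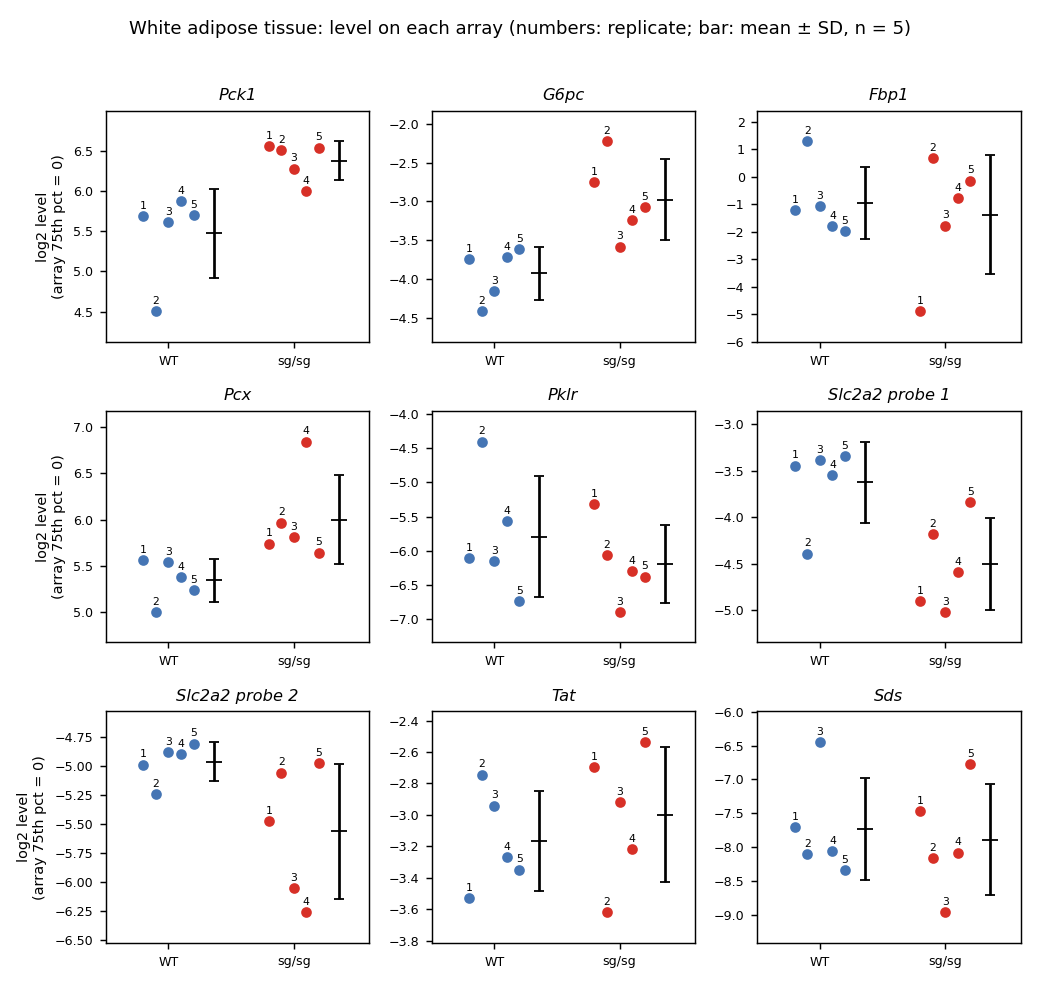
Level of each of the 9 probes on the 10 WAT arrays, drawn as for liver, with the mean ± SD of 5 arrays beside the points. Pck1, G6pc and Pcx have every sg/sg array above every WT array, WT replicate 2 is the lowest WT array for Pck1 (4.50) and Slc2a2 probe 1 (-4.39), and Sds is shown although it was well above background on 1 array of each genotype only.

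Other genes of the pathway in WAT were read from the same lists, beside the 21.9% of all probes that passed in WAT, 12.8% higher and 9.14% lower. Of 22 genes of glycolysis and pyruvate control, 10 rose and 2 fell. Hk2, the insulin-responsive hexokinase, rose by 1.29 ± 0.18 (SE), and Pfkm, the muscle-type phosphofructokinase, by 0.66 ± 0.10. Pfkfb4, which makes and degrades fructose-2,6-bisphosphate, fell (-1.32 ± 0.14), as did Hk3, a hexokinase of myeloid cells (-2.37 ± 0.38).

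Hormonal and transcriptional regulators in WAT gave 7 rises and no fall among 25 genes. The coactivators Ppargc1a (1.58 ± 0.20, SE) and Ppargc1b (1.25 ± 0.16) rose, and so did Irs1 (1.11 ± 0.19) and Mlxipl, the carbohydrate-responsive factor ChREBP (1.17 ± 0.22). Ppargc1b thus passed in opposite directions in the tissues, lower in sg/sg liver and higher in sg/sg WAT. It was not the only listed gene to do so, as Gpt2 fell in sg/sg liver (-0.53) and rose in sg/sg WAT (0.92). The test of the difference between the tissues is not given for either gene.

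Sugar carriers and fructose enzymes gave 4 rises and 1 fall among 10 genes in WAT. Slc2a4, the insulin-responsive carrier GLUT4 of fat and muscle, rose by 1.29 ± 0.29 (SE), Slc2a3 by 1.24 ± 0.28 and the fructokinase Khk by 0.66 ± 0.13, while Slc2a10 fell (-1.03 ± 0.15). Among amino acid genes 3 of 19 rose, Asns (1.10 ± 0.14), Fah (0.56 ± 0.12) and Gpt2 (0.92 ± 0.22), and none fell. Of 16 reversible and shared gluconeogenic genes none rose and 2 fell, Got1, the cytosolic aspartate aminotransferase (-0.85 ± 0.15), and Eno1 (-0.60 ± 0.16). Macrophage marker sums fell beside Hk3, and adipocyte marker sums were higher beside Slc2a4 and Mlxipl; their part in these results was not tested.

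Whether genotype acted differently in the tissues was tested as the change in WAT minus the change in liver over the 24363 probes measured in both. Of 8 probes 1 passed, Pcx, against 19.8% of all probes, 10.5% with the positive and 9.37% with the negative sign. Its mean went from 6.28 to 5.98 in liver and from 5.34 to 6.00 in WAT, a difference of 0.96 ± 0.25 (SE, adjusted p = 0.0108, limma). It ranged from 0.75 to 1.05 with any 1 of the 20 arrays left out, passing each time, and did not pass with slide as a fixed block (0.90, adjusted p = 0.131). For Tat the difference was -0.71 ± 0.28 and missed the threshold (adjusted p = 0.0835). Pck1 and G6pc, which passed in WAT and not in liver, were not shown to differ between the tissues (0.68 for each, adjusted p = 0.177 and 0.346).

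**Figure D4:**
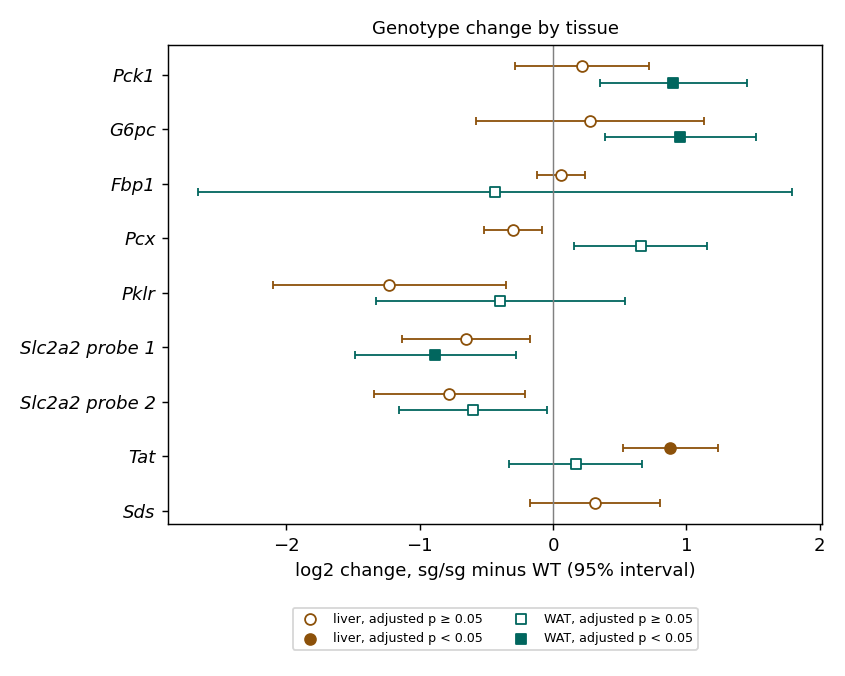
Log2 change of each probe, sg/sg minus WT, in liver (circles) and WAT (squares) with its 95% interval from limma; filled symbols have an adjusted p under 0.05. Pcx lies at -0.30 in liver and 0.66 in WAT, Tat is filled in liver (0.88) and Pck1, G6pc and Slc2a2 probe 1 are filled in WAT; Sds was tested in liver only.

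All 8 probes measured in both tissues were higher in WT liver than in WT WAT, where 79.8% of all probes tested differed, 48% higher in liver and 31.8% lower. The difference was largest for Tat, Fbp1 and G6pc (9.86, 9.60 and 8.87) and smaller for the 2 Slc2a2 probes (8.20 and 8.34) and Pklr (7.65). It was far smaller for the enzymes that adipocytes also use, with Pck1 3.67-fold higher in liver (1.87 ± 0.25, SE, adjusted p = 8.9648e-07, limma) and Pcx 1.92-fold higher (0.94 ± 0.18, adjusted p = 6.8847e-05). For Pcx the direction turned with quantile normalization (-0.30), and Pck1 did not pass under it (0.47, adjusted p = 0.102). Liver and WAT arrays lay on different slides, so slide and tissue cannot be told apart.

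Because the mice carry a deletion in Rora, the 250 bases before the annotated start site of each gene were searched for AGGTCA and GGGTCA, the core hexamers of RORα sites. The hexamer ACGTCA of cAMP response elements, the FOXO site CAAAACA, the E-box CACGTG and the glucocorticoid receptor hexamer TGTTCT were searched too, all on both strands; none of these motifs contains another. The sequences are from RefSeq promoters on GRCm38.p6, and those printed are all of the plus strand. Of the 8 genes, 7 had an entry, with 9 windows since Pcx and Pklr have 2 starts. The 4 windows printed belong to the gene that passed in liver, and to the 3 that passed in WAT, of which Slc2a2 had a lower mean in both tissues; capitals mark the motifs found.
Tat (chr8:109990186-109990435): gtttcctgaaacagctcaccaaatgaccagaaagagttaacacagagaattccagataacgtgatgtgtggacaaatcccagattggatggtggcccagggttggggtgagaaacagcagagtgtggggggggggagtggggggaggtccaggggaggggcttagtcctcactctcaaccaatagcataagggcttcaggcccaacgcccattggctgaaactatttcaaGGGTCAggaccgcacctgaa
Slc2a2 (chr3:28697653-28697902): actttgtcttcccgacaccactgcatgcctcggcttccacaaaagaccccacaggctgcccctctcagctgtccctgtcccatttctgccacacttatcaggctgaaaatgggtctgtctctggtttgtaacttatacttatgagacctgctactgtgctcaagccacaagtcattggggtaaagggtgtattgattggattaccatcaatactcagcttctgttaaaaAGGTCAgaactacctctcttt
G6pc (chr11:101367466-101367715): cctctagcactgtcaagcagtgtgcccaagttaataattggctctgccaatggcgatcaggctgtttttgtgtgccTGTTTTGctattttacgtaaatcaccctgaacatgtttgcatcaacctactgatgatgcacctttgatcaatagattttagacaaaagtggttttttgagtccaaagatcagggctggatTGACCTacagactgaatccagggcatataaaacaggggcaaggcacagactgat
Pck1 (chr2:173152823-173153072): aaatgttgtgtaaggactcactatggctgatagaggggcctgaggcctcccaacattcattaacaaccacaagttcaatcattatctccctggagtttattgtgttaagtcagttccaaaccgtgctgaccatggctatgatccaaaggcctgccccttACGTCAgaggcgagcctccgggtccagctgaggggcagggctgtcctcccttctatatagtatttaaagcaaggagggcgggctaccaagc
Positions are those of the first printed base of the motif, counted back from the start site. Tat held GGGTCA at -20 and Slc2a2 held AGGTCA at -21, preceded by a run of adenines. G6pc held AGGTCA on the minus strand at -54, printed as TGACCT, and the FOXO site on the minus strand at -174. Pck1 held ACGTCA at -91. Of the genes not printed, the second Pcx start held GGGTCA at -116 and the first Pcx start CACGTG at -248, the first Pklr start held AGGTCA at -151, and Fbp1 held none of the 6 motifs. TGTTCT was in none of the 9 windows. Of 32851 promoter windows of the same length, 14% held AGGTCA, 11.6% GGGTCA, 6.47% ACGTCA, 5.56% CAAAACA, 6.02% CACGTG and 16.1% TGTTCT, so that each motif is common by itself. A match describes these letters only. The genes with AGGTCA or GGGTCA included some with a higher mean (Tat) and some with a lower mean (Slc2a2 and Pklr) in sg/sg liver.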

How the data were processed

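Intensities are the processed signals that the authors deposited, extracted with Agilent Feature Extraction 9.5 per the labels' protocols. Per the file headers, background had been subtracted with spatial detrending and dim signals replaced by surrogates; such values make differences between dim probes uncertain. The deposited value table held the same linear, uncentred intensities (highest relative difference 0), with column medians of 42.5 to 220.8. Probe coordinates are those of the files, on mm7; no mm7 annotation was used here, and exons or untranslated regions are therefore not named.

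Spots that the program marked as outliers were set missing, spots of a probe were averaged, and log2 intensities were centred on each array's 75th percentile. Probes well above background on at least 4 of 10 arrays and missing on at most 2 were tested separately for liver and WAT by lmFit and eBayes (limma 3.58.1, R 4.3.3), with p-values two-sided, adjusted over all probes by Benjamini-Hochberg and called at 0.05. Differences between tissues came from 1 fit of 20 arrays. Named genes were every probe of the 8 genes and of Rora, up to 4 genes per list and tissue with the smallest p, and the 2 genes most like each of the 8. The genes and lists were chosen with earlier results of these data known. The fit was also run on simulated data with independent noise on each array and no slide effect. That run therefore does not bear on the slides. P-values measure the spread between 5 mice per genotype, and the number of arrays limits their precision. In liver that spread lies largely within slides, whereas the difference of genotype also carries that of slides. The fit of 20 arrays took liver and WAT arrays as independent, although the labels do not say whether they share mice. The alternatives tried were background correction, scaling, filter, probes per gene, slide, replicate number, a pooled fit, and leaving out each array. The result for 1 gene of the glycolysis list is not reported here.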

Additional observations from a re-analysis of the deposited data

Results flagged for a closer look

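Of 36 groups of 5 arrays, 6 held an array far from the other 4 by Dixon's criterion; chance marks about 1 in 20. WT WAT replicate 2 gave 3 of them: Pck1 was 4.50 there against 5.61 to 5.87 on the others, Slc2a2 probe 1 was -4.39 against -3.55 to -3.34, and Fbp1 was 1.29 against -1.97 to -1.06. Another 2 were on sg/sg liver replicate 2, with Slc2a2 probe 1 at 3.08 against 4.01 to 4.33 and Sds at 6.07 against 5.08 to 5.22. The last was Pcx on sg/sg WAT replicate 4, at 6.84 against 5.64 to 5.97; that array also had the lowest share of spots well above background (72.5%). The change of Pcx with genotype differed between the tissues by 0.96 in a test of the difference itself, and without sg/sg WAT replicate 4 the difference still passed, at 0.75.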

How the results depend on the processing

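The increase of Tat in liver kept its direction in all 23 alternatives and passed in 21, failing with slide as a fixed block and within slide 2, the liver slide that held both genotypes (slides 4, 5 and 6 are those of WAT). In WAT, Pck1 passed in 13, G6pc in 18 and Slc2a2 probe 1 in 8 of 25 alternatives, and the tissue difference of Pcx in 27 of 28. In liver, calls numbered 3600; without a filter on dim probes they were 1245, with slide as a fixed block 3, and 0 when only slide 2 was used; limma gave 2003 and 1963 there at an unadjusted p under 0.05. They were 1407 without both arrays numbered 2, and 1155 to 4111 with any 1 array left out, lowest without WT replicate 4. Without WT replicate 2 or 3 or sg/sg replicate 3 or 5 they were 2124, 1464, 2146 and 2225. Of the 9 probes, the number that passed in liver was 5 with normexp (1 higher, 4 lower: Pcx, Pklr and both Slc2a2 probes), 2 with only probes above background on every array, and 0 with slide as a fixed block or within slide 2 (limma; 1 at an unadjusted p under 0.05 in each); it was 1 to 2 with any 1 array left out.

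In WAT, 7080 calls became 1488 with normexp (5516 when sg/sg replicate 4 was left out as well) and 0 within each of slides 4, 5 and 6 (4781, 5081 and 4313 unadjusted, limma), where 3 or 4 arrays remain. Of the 8 probes, 0 passed with normexp (2 unadjusted), 0 within slides 4, 5 and 6 (2, 1 and 0 unadjusted), 1 with normexp without sg/sg replicate 4, and 0 to 3 with any 1 array left out (0 without sg/sg replicate 1, 4 unadjusted; 1 without WT replicate 3, sg/sg replicate 2 or sg/sg replicate 3). Calls for the difference between tissues went from 4832 to 2704 with normexp and 770 with slide as a fixed block, where 0 of the 8 probes passed (1 unadjusted); with 1 array left out 1 to 2 did, Tat being the second without sg/sg liver or WAT replicate 5. With median scaling these calls split into 2893 higher and 1535 lower, against 2549 and 2283. Calls between tissues went from 19442 to 32153 without a filter.

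Signs turned as follows. In liver, Pck1 was -0.0013 without both arrays numbered 2, and Fbp1 was -0.21 with quantile normalization, -0.046 with median scaling, and -0.064 with slide as a fixed block and within slide 2. In WAT, Fbp1 was 1.09 within slide 4, 1.01 within slide 5 and -0.95 to 0.45 with 1 array left out. Pklr was 0.98 with normexp, 0.31 with normexp without sg/sg replicate 4, and 0.10 within slide 5. Slc2a2 with normexp was 0.33 (probe 1) and 0.90 (probe 2), and 0.27 for probe 2 without sg/sg replicate 4; Tat was -0.18 within slide 4. For the difference between tissues, Fbp1 was -1.01 to 0.39 and Slc2a2 probe 2 -0.070 to 0.35 with 1 array left out, and Slc2a2 probe 1 was 1.06 with normexp. Pcx between tissues was -0.30 with quantile normalization. The cause of these shifts was not tested. The 2 alternatives without both arrays numbered 2 and with normexp without sg/sg replicate 4 were chosen after seeing the data.

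Same-numbered WT and sg/sg arrays were little alike, with deviations that correlated between -0.11 and 0.17 in liver and between -0.14 and 0.09 in WAT. So few correlations cannot exclude a pairing. With a replicate block, calls were 1659 in liver and 4488 in WAT, where 0 of the 8 probes passed (4 unadjusted; Pck1 0.90, adjusted p = 0.0710), and Tat in liver still passed (0.88, adjusted p = 0.0493, limma). Signal over background prevented a test of Sds in WAT; the other 8 probes were well above background on all 10 WAT arrays.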
